A study of Mus musculus with 18 samples.

Results

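The cluster of miR-183, miR-96 and miR-182 was followed in small RNA libraries of mouse adrenal glands and of neuroblastomas that arose in transgenic mice. Its members were chosen by name as the mature miRNAs mmu-miR-183-5p, mmu-miR-183-3p, mmu-miR-96-5p and mmu-miR-182-5p (written below without mmu-), which are 4 of the 1966 miRNAs in the table. Of these, 3 of 4 passed the filter on low values (at least 1 CPM in at least 3 libraries), against 726 of all 1966 miRNAs, and miR-183-3p did not. The control group AG holds 3 wildtype adrenal glands of mice with the genotype CRE -. The group TI holds 7 tumors of R26 IGF2BP1 mice (CRE +), of which 6 are homozygous (IGF2BP1 +/+) and 1 is heterozygous (IGF2BP1 +/-), and 1 of the 7 is a tumor labelled as adrenal gland. The group TIM holds 8 tumors of R26 IGF2BP1/MYCN mice (genotype IMP1/MYCN, CRE +), of which 2 are labelled as adrenal gland and 1 as spine. In both tumor groups a Cre recombinase under the Dbh promoter, which is active in cells of the sympatho-adrenal lineage, removed a stop cassette before the transgenes in the Rosa26 locus, and the IGF2BP1 transgene lacks its own 3'UTR. Age at sampling was not used here. The paper reports a shorter median survival of R26 IGF2BP1/MYCN mice than of homozygous R26 IGF2BP1 mice. Age may therefore differ between the tumor groups along with genotype, and the 2 cannot be told apart here. The table does not tie its columns to single mice, and the libraries of a group are therefore named only by letters.

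The 3 hairpins of the cluster are made from a shared primary transcript and are best known from sensory cells, such as photoreceptors of the retina and hair cells of the inner ear. Mutations in the seed of miR-96, the short stretch at its 5′ end that pairs with target mRNAs, cause hearing loss in mice and people. The cluster is also raised in many carcinomas, where the FOXO1 mRNA is a known target, and in human neuroblastoma cells miR-183 has been described as repressed by MYCN together with the histone deacetylase HDAC2.

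The sequences below, from RefSeq on GRCm38.p6 (the assembly that mm10 stands for), show how closely related the main strands of the 3 hairpins are. They are printed 5′ to 3′ with the seed (bases 2 to 8) in capitals.
miR-183-5p: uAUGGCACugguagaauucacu
miR-96-5p: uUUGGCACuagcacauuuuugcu
miR-182-5p: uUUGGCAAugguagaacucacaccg
miR-183-3p: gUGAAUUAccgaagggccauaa
Counted from 1 at the 5′ end, the seeds of miR-96-5p and miR-182-5p differ by C8A, those of miR-96-5p and miR-183-5p by U2A, and those of miR-182-5p and miR-183-5p by U2A and A8C. Laid base on base over their first 22 positions, miR-182-5p and miR-183-5p share 18 and differ by U2A, A8C, C17U and A22U. The seed of miR-183-3p, which comes from the other strand of the miR-183 hairpin, is unrelated. The only other miRNA in the table with one of these seeds was miR-1271-5p, which shares that of miR-96-5p and had 0 reads in all 18 libraries.

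The hairpins lie on the minus strand at chr6:30165918-30169737 (GRCm38.p6), a span of 3820 bp within the long noncoding RNA gene Mirc35hg. In the direction of transcription miR-183 comes first, followed after 116 bp by miR-96 and after a further 3453 bp by miR-182. The protein-coding genes on either side are Nrf1 and Ube2h. Because the members share this transcript, the window of 300 bases around the start of Mirc35hg (chr6:30174076-30174375, minus strand), is shown with the E-box motif CANNTG in capitals, the class of site that MYC family proteins bind.
Mirc35hg promoter: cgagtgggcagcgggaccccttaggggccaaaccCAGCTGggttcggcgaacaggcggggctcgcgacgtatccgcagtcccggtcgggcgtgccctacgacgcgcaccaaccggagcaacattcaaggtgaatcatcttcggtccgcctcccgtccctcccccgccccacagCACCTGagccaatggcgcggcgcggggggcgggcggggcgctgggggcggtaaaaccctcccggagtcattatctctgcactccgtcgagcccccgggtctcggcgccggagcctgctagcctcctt
This window holds 2 matches to CANNTG, which reads the same on both strands, and 0 matches to CACGTG, the form that MYC proteins prefer and that is contained in CANNTG. Of 32851 promoter windows of the same length, 39.6% hold at least 2 matches to CANNTG and 7.15% hold CACGTG. A match is a description of the letters, and binding was not measured here.

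Depth, the total of reads on miRNAs, was 21644743 to 23332704 in AG, 11802837 to 21268124 in TI and 11641696 to 23435621 in TIM. Values are CPM, for which the authors scaled a library's reads by its total multiplied by its TMM factor, an edgeR scaling factor. Between 2.29% and 61.9% of a library's reads came from miR-148a-3p alone, and TMM factors ran from 0.700 in TI to 1.85 in TIM. Of the miRNAs set as markers of other cells, 2 of 2 endothelial ones (miR-126a-3p and miR-126a-5p) were called lower in both tumor groups than in AG, as was the hepatocyte miR-122-5p. Of 5 stromal markers 4 were called lower in each tumor group, all but miR-145a-5p in TI and all but miR-214-3p in TIM. Of 5 leukocyte markers 3 were called lower in TI (miR-142a-5p, miR-150-5p and miR-223-3p), and 4 in TIM with miR-142a-3p added. Of the 3 erythroid markers, 0 were called in either. Of the 5 neural and neuroendocrine markers, 3 were called higher in both tumor groups (miR-124-3p, miR-9-5p and miR-137-3p). The other markers, miR-375-3p and miR-7a-5p, were not called. The median of miR-375-3p was 26553 CPM in AG, 5166 CPM in TI and 7471 CPM in TIM. That of miR-7a-5p was 65879.4, 49987.5 and 72472.5 CPM. Over all tested miRNAs, 55.8% were called in TI against AG (192 higher and 213 lower). In TIM 51.4% were called against AG (185 higher and 188 lower). The part of the marked cells in the results below was not tested. In such bulk tissue, fewer cells of a type and less RNA per cell cannot be told apart.

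In AG, miR-182-5p was the most abundant member. It was read at 587, 228 and 321 CPM in the 3 glands, a mean of 379 ± 186 CPM (SD, n = 3). The partner miR-183-5p was read at 326, 79.8 and 78.8 CPM (161 ± 142 CPM, SD, n = 3). The miR-96-5p strand was far lower, at 66.7, 5.04 and 5.88 CPM (25.9 ± 35.4 CPM, SD, n = 3). All 3 members were highest in the same gland, AG-a, where miR-96-5p was more than 10 times the level of the other glands, so the control group itself was not uniform.

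In TI tumors the members lay mostly below the adrenal glands. The lowest, median and highest of the 7 tumors were 18.1, 55.7 and 538 CPM for miR-182-5p (mean 128 ± 186 CPM, SD), and 6 of 7 tumors lay below the lowest gland. For miR-183-5p they were 14.5, 41.5 and 259 CPM (mean 63.8 ± 87.4 CPM, SD), again with 6 of 7 tumors below the lowest gland. For miR-96-5p they were 0.998, 4.30 and 25.7 CPM (mean 7.29 ± 8.84 CPM, SD), with 5 of 7 below the lowest gland and 2 within the range of the glands. A single tumor, TI-b, was the highest for all 3 and lay within the range of the glands. Without it, the mean of miR-183-5p was 31.3 ± 17.6 CPM (SD, n = 6) and that of miR-182-5p was 59.9 ± 49.2 CPM (SD, n = 6).

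These differences did not pass the test. In limma on log2(CPM + 1) with all 18 libraries, the log2 difference of TI from AG was -2.41 for miR-182-5p (standard error 1.72, adjusted p = 0.24), -1.73 for miR-183-5p (standard error 1.70, adjusted p = 0.41) and -1.34 for miR-96-5p (standard error 1.43, adjusted p = 0.45). Of the 3 tested members 0 were called in TI, where 55.8% of all tested miRNAs were, and 0 had an unadjusted p under 0.05. The count was also 0 with edgeR and DESeq2 on recovered reads, in which 0 members had an unadjusted p under 0.05. These called 402 and 437 of all 726 tested miRNAs. With only TI and AG in the model, which leaves the spread within TIM out of the error, miR-182-5p was called (adjusted p = 0.040 from limma). That model called 411 of all 726 tested miRNAs. Without the gland AG-a, the differences of miR-183-5p and miR-96-5p were smaller, at -1.05 and -0.20.

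In TIM tumors the cluster took extreme levels in both directions. The lowest, median and highest of the 8 tumors were 7.80, 476 and 7019 CPM for miR-183-5p, an 899-fold range. For miR-182-5p they were 6.79, 426 and 7806 CPM, an 1149-fold range. For miR-96-5p they were 0.734, 21.5 and 395 CPM, a 538-fold range. The tumor TIM-g was the highest and TIM-c the lowest for each of the 3. For both miR-183-5p and miR-182-5p, 4 of 8 tumors lay above the highest gland, 4 of 8 lay below the lowest gland and 0 lay between. For miR-96-5p, 1 tumor lay above, 3 lay below and 4 lay within the range of the glands.

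**Figure D1:**
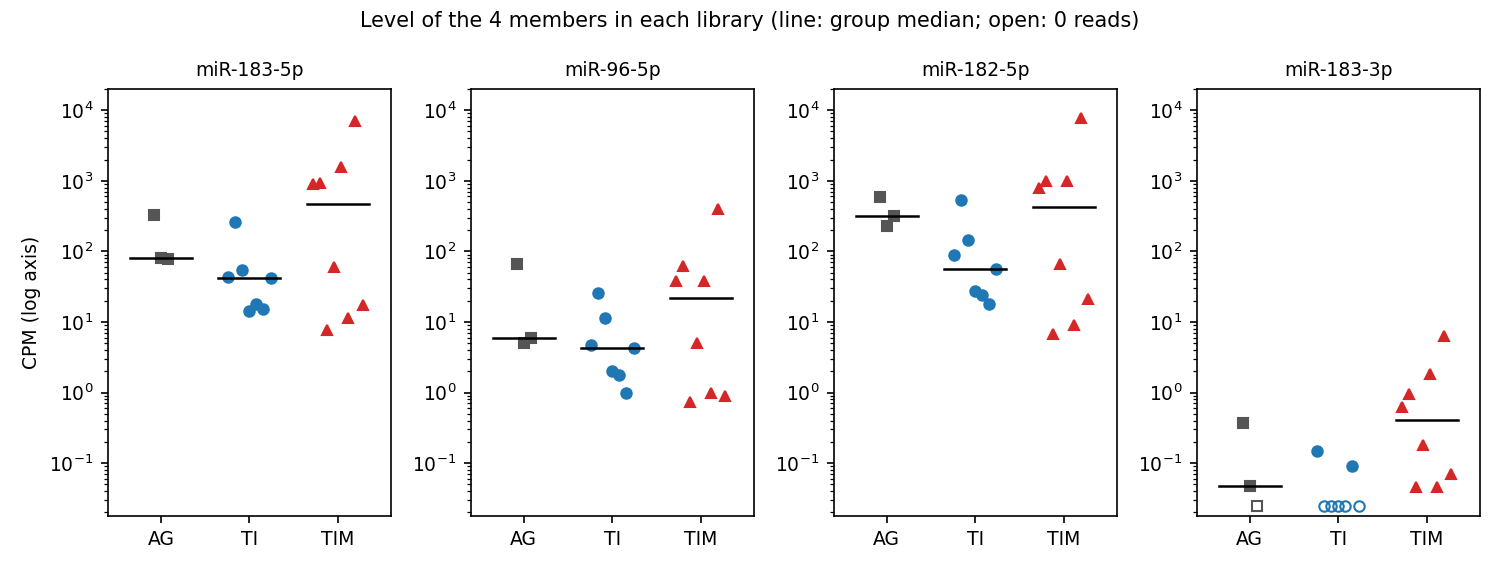
CPM of each member (log axis) in the 3 AG, 7 TI and 8 TIM libraries, with a line at the group median and open symbols for libraries with 0 reads. TIM libraries of miR-183-5p run from 7.80 to 7019 CPM, with no library between 60.7 and 891 CPM, while 6 of 7 TI libraries lie below the lowest AG library.

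The 4 TIM tumors above the glands had miR-183-5p at 891 CPM (TIM-a), 918 CPM (TIM-b), 1561 CPM (TIM-e) and 7019 CPM (TIM-g). The other 4 had 7.80 CPM (TIM-c), 11.4 CPM (TIM-f), 17.3 CPM (TIM-h) and 60.7 CPM (TIM-d). The values thus fell into a high and a low set with a gap from 60.7 to 891 CPM. For miR-182-5p the same tumors were on the same sides, with 786, 995, 982 and 7806 CPM in TIM-a, TIM-b, TIM-e and TIM-g, and 6.79, 9.02, 21.5 and 65.4 CPM in TIM-c, TIM-f, TIM-h and TIM-d. The mean of miR-183-5p in TIM was 1311 ± 2378 CPM (SD, n = 8), and 495 ± 627 CPM (SD, n = 7) without TIM-g.

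Summed over the 4 members, the cluster took between 0.00276% and 1.26% of the miRNA reads of a TIM library, a 458-fold range. This share does not use the TMM factor. It was 0.0310% to 0.0908% in AG and 0.00322% to 0.0659% in TI. The range in TIM thus exceeded those of both other groups at either end.

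Spread of this size was rare among the miRNAs of TIM. The SD of log2(CPM + 1) over the 8 TIM tumors was 3.70 for miR-183-5p, 3.69 for miR-182-5p and 2.91 for miR-96-5p, against a median of 0.619 over the 726 tested miRNAs. From the highest down, the members ranked 1, 2 and 4 of 726, with miR-196b-5p between them at 3.25. In TI the SDs of miR-183-5p, miR-182-5p and miR-96-5p were 1.43, 1.70 and 1.32, at ranks 69, 49 and 84 of 726, against a median of 0.618. In AG miR-96-5p had an SD of 1.96, rank 2 of 726, which comes from the gland AG-a. These ranks describe the tumors measured, and no test was run on them.

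**Figure D2:**
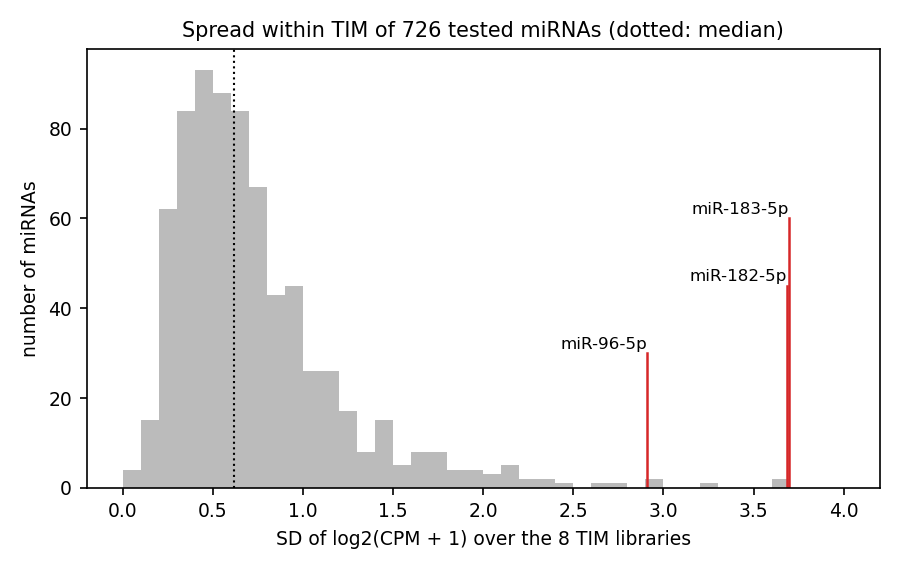
Number of miRNAs (of 726 tested) by the SD of their log2(CPM + 1) over the 8 TIM libraries, with red lines at the 3 tested members and a dotted line at the median of 0.619. The members stand at 2.91, 3.69 and 3.70, at the far right end of the distribution. The heights of the red lines have no meaning.

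With such spread, the means of TIM were not told apart from those of the other groups. Against AG, the log2 difference from limma was 0.49 for miR-183-5p (standard error 1.66, adjusted p = 0.83), -1.05 for miR-182-5p (standard error 1.69, adjusted p = 0.63) and -0.0043 for miR-96-5p (standard error 1.40, adjusted p = 0.998). Of the 3 tested members 0 were called, where 51.4% of all tested miRNAs were, and 0 had an unadjusted p under 0.05. With edgeR the count was 0, with 0 at an unadjusted p under 0.05. With DESeq2, which like edgeR compares means of reads rather than of logarithms, miR-183-5p was called with a log2 difference of 2.89 (adjusted p = 0.048). DESeq2 called 423 of all 726 tested miRNAs in this comparison. Signs also depended on the scale. The log2 ratio of the mean CPM of TIM over that of AG was 3.02 for miR-183-5p and 1.82 for miR-182-5p, and the difference of miR-182-5p turned to 1.78 in edgeR and 1.69 in DESeq2. Without TIM-g the difference of miR-183-5p turned to -0.26 in limma.

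Between the tumor groups, the members were higher on average in TIM. The log2 difference of TIM from TI was 2.22 for miR-183-5p (standard error 1.27, adjusted p = 0.32), 1.37 for miR-182-5p (standard error 1.29, adjusted p = 0.57) and 1.33 for miR-96-5p (standard error 1.07, adjusted p = 0.49), all from limma. Of the 3 tested members 0 were called and 0 had an unadjusted p under 0.05, where 5.23% of all tested miRNAs were called. In edgeR all 3 had an unadjusted p under 0.05 and 0 of 3 passed after adjustment. DESeq2 called 3 of 3, with log2 differences of 4.21, 3.23 and 3.07 for miR-183-5p, miR-182-5p and miR-96-5p (adjusted p = 0.0020, 0.017 and 0.022). It called 123 of all 726 tested miRNAs in this comparison, more than limma did. In miR-183-5p and miR-182-5p the 4 high TIM tumors lay above all TI tumors. Of the 4 low ones, 2 lay within the range of TI and 2 (TIM-c and TIM-f) lay below it.

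The levels of the 3 tested members went together from tumor to tumor. In TI, over 7 tumors, Pearson's r of log2(CPM + 1) was 0.98 for miR-183-5p and miR-182-5p (exact permutation p = 0.0024, adjusted p = 0.0037 over 12 relations, 6 in each tumor group) and Spearman's rho was 0.89 (exact permutation p = 0.012, adjusted p = 0.016). For miR-183-5p and miR-96-5p r was 0.96 (exact permutation p = 0.0028, adjusted p = 0.0037) and rho 0.89 (exact permutation p = 0.012, adjusted p = 0.016). For miR-96-5p and miR-182-5p r was 0.99 (exact permutation p = 0.00040, adjusted p = 0.00095) and rho 1 (exact permutation p = 0.00040, adjusted p = 0.00095). Without the 2 tumors farthest from the median on the first measure, r was 0.97, 0.95 and 0.97 for these pairs. All points share their library and its scaling. With so few reads in TI, miR-183-3p had an r of -0.17, -0.28 and -0.16 with miR-183-5p, miR-96-5p and miR-182-5p (exact permutation p = 0.90, 0.62 and 0.86, adjusted p = 0.90, 0.74 and 0.90) and a rho of -0.09, -0.22 and -0.22 (exact permutation p = 0.90, 0.67 and 0.67, adjusted p = 0.90, 0.73 and 0.73).

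In TIM r was 0.996 for miR-183-5p and miR-182-5p (exact permutation p = 0.00015, adjusted p = 0.00060) and rho was 0.98 (exact permutation p = 0.00040, adjusted p = 0.00095), with an r of 0.99 without the 2 tumors farthest from the median. The other pairs of the 4 members had an r from 0.89 to 0.99, with adjusted exact permutation p of at most 0.0037. These values span the gap between the high and the low set, and the 4 tumors within a set were too few to test the relation there.

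**Figure D3:**
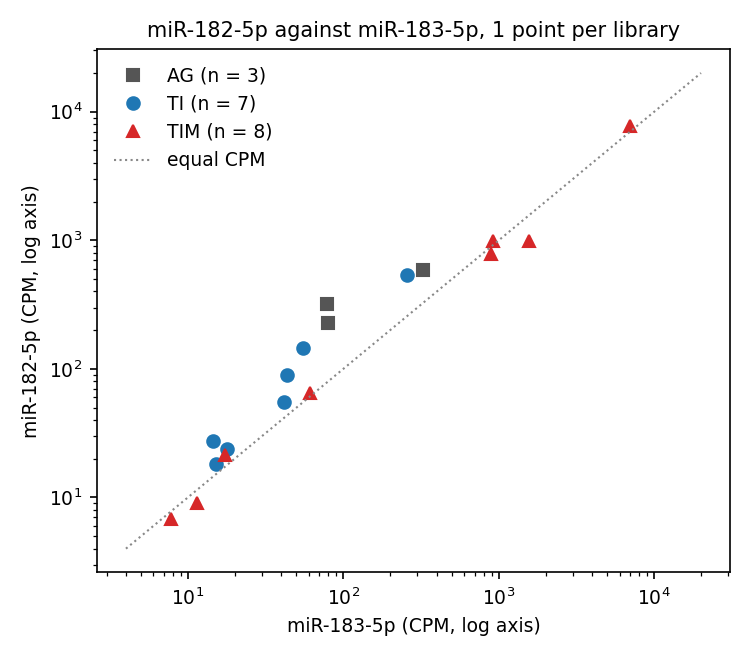
CPM of miR-182-5p against that of miR-183-5p, both on log axes, with 1 point per library and a dotted line of equal CPM. AG and TI points lie above the line, and the TIM points lie along it from 7.80 to 7019 CPM of miR-183-5p.

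While the level of the cluster varied, the balance between its members differed by group. The reads of miR-182-5p over those of miR-183-5p were 1.80, 2.86 and 4.08 in the 3 glands (mean 2.91 ± 1.14, SD). Over the 7 TI tumors the lowest, median and highest ratio was 1.19, 1.88 and 2.61 (mean 1.79 ± 0.516, SD). Over the 8 TIM tumors it was 0.629, 0.980 and 1.24 (mean 0.960 ± 0.200, SD). Thus miR-182-5p exceeded miR-183-5p in every gland and every TI tumor, and the strands were about level in TIM. The ratio within TIM varied by 1.97-fold while the level of miR-183-5p varied by 899-fold. All 8 TIM tumors lay below the lowest gland, and 7 of 8 lay below the lowest TI tumor.

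On log2(CPM + 1), the log2 ratio of miR-182-5p over miR-183-5p was lower in TIM than in TI, with a difference of -0.85 (TIM -0.08 ± 0.31, n = 8, and TI 0.77 ± 0.42, n = 7, SD). This passed the test (two-sided exact permutation p = 0.00062, adjusted p = 0.0056 over 9 tests of ratios). Against AG (1.45 ± 0.58, SD, n = 3) the difference of TIM was -1.54, with no overlap, at an exact permutation p of 0.012, the smallest that 8 against 3 libraries allow, and an adjusted p of 0.055. The adjusted exact permutation p was 0.027 when the p was taken from the absolute difference. The difference of TI from AG, -0.69, did not pass (exact permutation p = 0.12, adjusted p = 0.21). The difference between TIM and TI kept its call when any 1 library was left out, with adjusted exact permutation p between 0.0052 and 0.012.

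The ratio of miR-96-5p to miR-183-5p was also lower in TIM than in TI. In reads it was 0.205, 0.0631 and 0.0746 in the 3 glands. The lowest, median and highest were 0.0655, 0.104 and 0.207 in TI and 0.0247, 0.0620 and 0.0941 in TIM, and 4 of 8 TIM tumors lay below the lowest TI tumor. The log2 difference between TIM and TI was -0.89 with an exact permutation p of 0.041, which did not pass after adjustment (adjusted p = 0.12 on log2(CPM + 1)). It passed with a pseudocount of 0.1 (adjusted exact permutation p = 0.035), which weighs less on the low miR-96-5p. The differences of TI and of TIM from AG were 0.39 and -0.50 (exact permutation p = 0.32 and 0.48, adjusted p = 0.41 and 0.55).

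**Figure D4:**
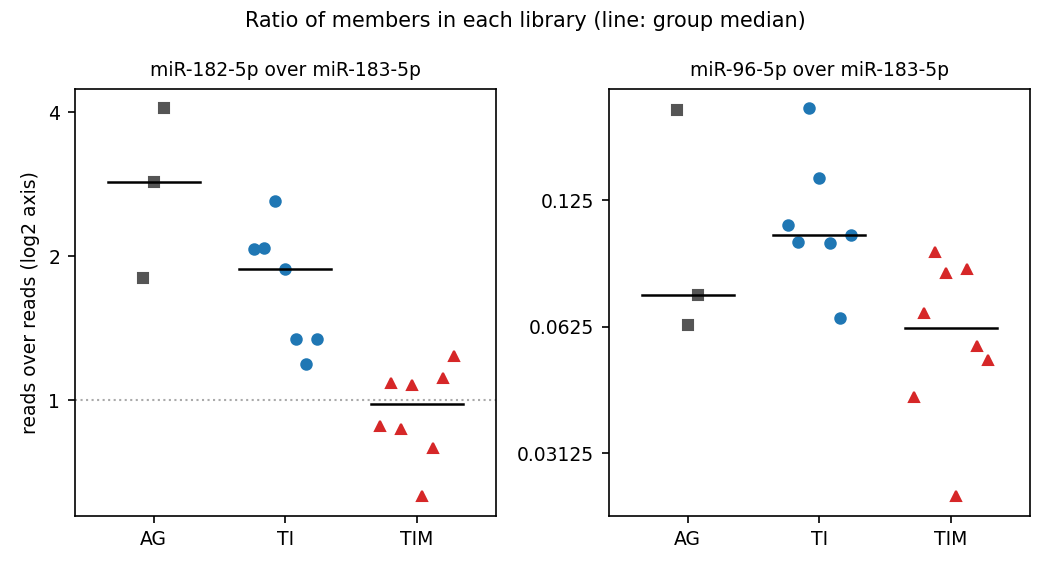
Reads of miR-182-5p and of miR-96-5p over those of miR-183-5p (log2 axes) in the 3 AG, 7 TI and 8 TIM libraries, with lines at the group medians and a dotted line at 1. For miR-182-5p the TIM libraries run from 0.629 to 1.24 and the AG libraries from 1.80 to 4.08, with no overlap.

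As a background for these ratios, the 420 pairs of tested miRNAs with hairpins within 10 kb of each other, 3 of them pairs of this cluster, were tested in the same way. This background was added after the data were seen. Between TIM and TI, 15.5% of the pairs had an unadjusted exact permutation p under 0.05, and 2 of 3 pairs of the cluster did. The pair that did not was miR-182-5p over miR-96-5p, whose log2 difference was 0.03. Between TIM and AG 54.3% of the pairs did, and 1 of 3 of the cluster. Between TI and AG 44.0% did, and 0 of 3 of the cluster.

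The other strands of the hairpins were close to the limit of detection. miR-183-3p had 8, 1 and 0 reads in the 3 glands and at most 2 reads in a TI tumor, with 0 reads in 5 of 7. A count of 0 allows up to 3 reads, which stand for 0.139 to 0.140 CPM in AG, 0.160 to 0.272 CPM in TI and 0.101 to 0.209 CPM in TIM. In TIM it had 1, 1, 1, 4, 16, 28, 41 and 112 reads, with the 4 highest in TIM-a, TIM-b, TIM-e and TIM-g, the tumors that were also high in miR-183-5p. In CPM its highest value in TIM was 6.39, in TIM-g, against 0.370 in AG. Without a filter, the log2 differences from limma were -0.13 for TI from AG, 0.64 for TIM from AG and 0.77 for TIM from TI (adjusted p = 1, 0.43 and 0.37).

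The minor strand took a small share of the reads in all 3 hairpins. miR-183-3p made up 216 of 227537 reads of its hairpin in all libraries (0.0949%, 95% Wilson interval 0.0831% to 0.108%). miR-182-3p made up 233 of 248914 (0.0936%, 0.0823% to 0.106%) and miR-96-3p 19 of 13224 (0.144%, 0.0920% to 0.224%). By group, the share of miR-183-3p was 0.0860% in AG (0.0452% to 0.163%), 0.0440% in TI (0.0150% to 0.129%) and 0.0970% in TIM (0.0846% to 0.111%). These intervals overlap, but overlap is not a test, and a difference between groups in the strand share of miR-183 was not tested. The share of miR-182-3p was 0.0815% in AG (0.0528% to 0.126%), 0.0367% in TI (0.0157% to 0.0859%) and 0.0987% in TIM (0.0862% to 0.113%), so that the intervals of TI and TIM did not meet. They overlapped without TIM-g (66 of 73782 reads in TIM, 0.0895%, 0.0703% to 0.114%), without TIM-e (0.0885%, 0.0760% to 0.103%), without TIM-f (0.0983%, 0.0858% to 0.113%) and when any 1 TI tumor other than TI-a was left out. miR-96-3p made up 0 of 1678 reads in AG (Wilson interval up to 0.228%), 0.132% in TI (0.0233% to 0.743%) and 0.167% in TIM (0.106% to 0.264%). All of these intervals pool the reads of a group. They cover counting error only, since reads without molecular identifiers are not independent molecules. The log2 ratio of miR-183-5p over miR-183-3p, which the pseudocount governs at so few reads, differed by -1.60 for TI from AG, -0.15 for TIM from AG and 1.45 for TIM from TI (exact permutation p = 0.12, 0.96 and 0.25, adjusted p = 0.21, 0.96 and 0.37).

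Depth went along with the level of the cluster in TIM. The high tumors TIM-a, TIM-b, TIM-e and TIM-g had 21361882, 22654966, 23435621 and 21102520 reads on miRNAs. The low tumors TIM-c, TIM-d, TIM-f and TIM-h had 12133274, 16123887, 11641696 and 17890177. TMM factors were 1.19, 1.31, 0.955 and 0.831 in the high tumors and 1.80, 1.39, 1.85 and 0.802 in the low ones, so they overlapped. Over the 8 TIM tumors, depth had an r of 0.88 with miR-183-5p (exact permutation p = 0.0081, adjusted p = 0.049 over 12 relations) and a rho of 0.81 (exact permutation p = 0.022, adjusted p = 0.17), and r was 0.78 without the 2 tumors farthest in depth. With miR-182-5p r was 0.88 (exact permutation p = 0.0070, adjusted p = 0.049) and rho 0.79 (exact permutation p = 0.028, adjusted p = 0.17), and r was 0.75 without those 2. With miR-96-5p r was 0.81 (exact permutation p = 0.017, adjusted p = 0.067) and rho 0.71 (exact permutation p = 0.058, adjusted p = 0.23), and r was 0.69 without those 2. Depth and the high or low set cannot be told apart in TIM. In TI the level of miR-183-5p had an r of 0.26 with depth (exact permutation p = 0.62, adjusted p = 0.90) and a rho of 0.21 (exact permutation p = 0.66, adjusted p = 0.85), and r was 0.08 without the 2 tumors farthest in depth. The 12 relations also hold those with the percent of reads from miR-148a-3p. In TIM that percent had an r of -0.09, -0.16 and -0.06 with miR-183-5p, miR-96-5p and miR-182-5p (adjusted exact permutation p = 0.91 each). Without the 2 tumors farthest in that percent, r was 0.92, 0.87 and 0.92. Over all TI tumors r was 0.28, 0.22 and 0.28 (adjusted exact permutation p = 0.90 each).

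**Figure D5:**
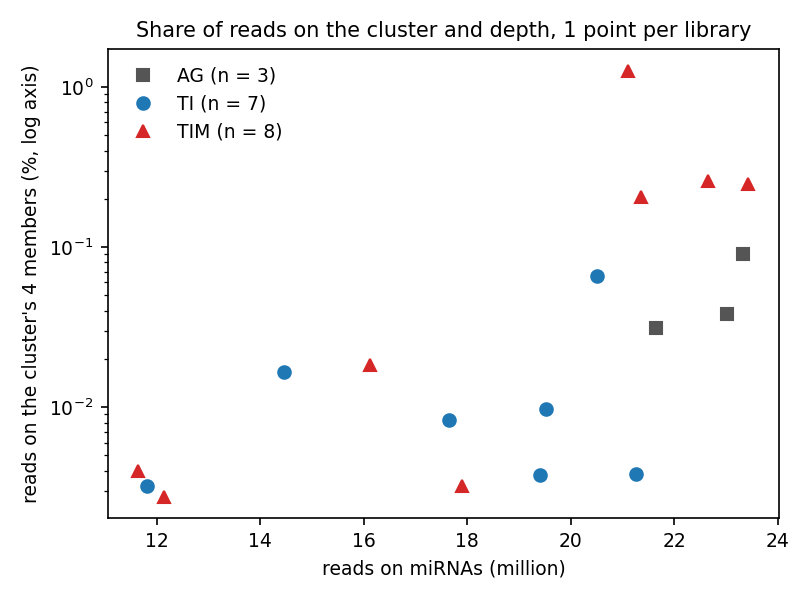
Percent of a library's miRNA reads on the 4 members (log axis) against its reads on miRNAs, with 1 point per library. The 4 TIM libraries with 0.205% or more all have at least 21102520 reads, and the TI libraries show both low and high depth at low shares.

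In TMM-scaled CPM, the endothelial marker miRNAs also differed between the high and the low TIM tumors. The summed level of the endothelial miR-126a-3p and miR-126a-5p was 5222 to 8943 CPM in the 4 high tumors and 2428 to 3575 CPM in the 4 low ones, without overlap. This separation depends on the TMM factor, which was 1.85 in TIM-f (2428 CPM) and 0.831 in TIM-g (5222 CPM). Without that factor TIM-f lies above TIM-g, and the sets overlap. How many of all tested miRNAs separate the sets was not counted. In AG the endothelial sum was 38529 to 46092 CPM, and in TI it was 1704 to 6736 CPM, with 2770 CPM in TI-b. The summed levels of the leukocyte, erythroid, stromal, hepatocyte and neural and neuroendocrine markers overlapped between the high and the low TIM tumors, at 69.5 to 207 against 70.1 to 215 CPM, 97.1 to 571 against 118 to 2102 CPM, 38746 to 101974 against 16240 to 70493 CPM, 5.88 to 82.4 against 4.25 to 19.5 CPM and 79419 to 247584 against 43518 to 130312 CPM. The part of these cells in the level of the cluster was not tested.

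The summed level of the epithelial markers was lower in the high TIM tumors than in the low ones. The 7 markers are the miR-200 family, including miR-141-3p and miR-429-3p, together with miR-203-3p and miR-205-5p. Of the 7, 0 were called between TI and AG, and miR-203-3p alone was called between TIM and AG (-2.44, adjusted p = 9.71e-05 from limma) and between TIM and TI (-1.53, adjusted p = 0.0077 from limma). Over all tested miRNAs, 55.8%, 51.4% and 5.23% were called in these comparisons. The summed level of the 7 markers was 1236 to 1762 CPM in AG, 354 to 1952 CPM in TI and 180 to 530 CPM in TIM. In the high tumors TIM-a, TIM-b, TIM-e and TIM-g it was 180, 204, 330 and 217 CPM. In the low tumors TIM-c, TIM-d, TIM-f and TIM-h it was 352, 530, 375 and 413 CPM, above all of the high ones. In TI-b, the TI tumor with the highest summed cluster level (823 CPM), the epithelial sum was 354 CPM, the lowest in TI. The other TI tumors did not continue this order. In TI-c, with the next highest cluster level (211 CPM), the epithelial sum was 1952 CPM, the highest in TI. In TI-f, with the lowest cluster level (34.5 CPM), it was 636 CPM. A relation over the TI tumors was not tested. In the glands the summed level was dominated by miR-203-3p, while miR-200b-3p had a highest value of 218 CPM and a median of 26.0 CPM, and miR-205-5p was at or under 0.925 CPM. In TIM too miR-203-3p had the highest median, at 243 CPM (159 to 366 CPM). The median of miR-200b-3p there was 8.39 CPM, with a highest value of 162 CPM. Single epithelial markers were not compared between the high and the low set.

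Other miRNAs of chromosome 6 were examined beside the cluster. Of 58 listed miRNAs whose hairpins all lie on chromosome 6 outside the cluster, 17 were tested. Of the 17, 5 were called higher in TI than in AG (both strands of miR-148a and of miR-335, and miR-490-3p) and 4 lower (both strands of miR-29a, miR-592-5p and miR-7043-3p). In TIM 4 were called higher (miR-335-3p, both strands of miR-490, and miR-704) and 2 lower (both strands of miR-29a). These are 52.9% and 35.3% of the 17, against 55.8% and 51.4% of all tested miRNAs. Their median log2 difference was 0.71 in TI and 0.64 in TIM, against -0.01 and 0.18 over all tested miRNAs. Between TIM and TI 0 of 17 were called, where 5.23% of all tested miRNAs were, with a median of 0.20 against 0.06. For this same chromosome, the paper reports pronounced copy number gains among TIM tumors and deletions among TI tumors. DNA copy number was not analysed here, and the libraries with such gains or deletions were not identified. The part of copy number in the level of the cluster, or in its high and low set in TIM, was not tested.

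Within 2 Mb of the cluster the reference places miR-129-5p, both strands of miR-335, and the miR-29a and miR-29b strands, of which 6 of 7 were tested. miR-335-5p rose in TI by a log2 difference of 1.66 (adjusted p = 0.010 from limma) and had 0.64 in TIM (adjusted p = 0.29 from limma). miR-335-3p rose in both, by 1.41 in TI and 1.62 in TIM (adjusted p = 0.022 and 0.011 from limma). miR-29a-3p, of a family that targets collagen mRNAs, fell in both, with -2.60 in TI and -2.99 in TIM (adjusted p = 0.024 and 0.012 from limma), as did miR-29a-5p, with -1.50 and -1.79 (adjusted p = 0.037 and 0.016 from limma). miR-29b-3p fell in TIM with -2.62 (adjusted p = 0.026 from limma) and had -1.98 in TI (adjusted p = 0.082 from limma). miR-129-5p had 0.54 and 1.02 (adjusted p = 0.69 and 0.41 from limma). Both miR-129-5p and miR-29b-3p are also made from a hairpin elsewhere. Between TIM and TI 0 of the 6 were called, where 5.23% of all tested miRNAs were. Against AG, the neighbours of the cluster thus moved in both directions.

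The miRNAs whose pattern over all 18 libraries was most like that of the cluster were let-7c-5p (Pearson's r 0.70 with the mean of the standardised levels of the tested members), miR-125b-2-3p (0.65), miR-125b-5p (0.61), miR-212-5p (0.53) and miR-184-3p (0.53), of 397 candidates with a mean of at least 10 CPM. After subtraction of group means they were miR-30d-3p (0.79), let-7c-5p (0.70), miR-125b-5p (0.69), miR-125b-2-3p (0.65) and miR-125a-5p (0.62). These correlations across libraries share depth and scaling and are given as descriptions. The most like miRNAs varied far less. In TIM, let-7c-5p had a lowest, median and highest level of 6896, 9777 and 14218 CPM, and miR-30d-3p had 12.9, 16.9 and 22.0 CPM.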

How the data were processed

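The signal deposited by the authors is CPM per mature miRNA and library. The submitters' processing notes name cutadapt 2.8, Bowtie2 2.3.5.1, featureCounts 2.0.0, edgeR 3.40 and mm10, and the treatment of reads with several matches is not given in the sources used here. The authors also deposited log2 fold changes, p-values and FDR values of their own comparisons, which were not used. All values (100%) were whole multiples of what 1 read is worth in their library, to within 1e-06 reads, which gave the recovered reads. No libraries of a group were identical.

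Levels were tested with limma 3.58.1 in R 4.3.3 (trend, all 18 libraries, log2(CPM + 1), threshold 0.05 on Benjamini-Hochberg adjusted p over 726 miRNAs), after a check on simulated data. edgeR 4.0.16 and DESeq2 1.42.0 served as alternatives on the recovered reads, and other scalings, pseudocounts, filters and left-out libraries were also tried. Ratios and correlations were tested by exact permutation in Python 3.11.15 (numpy 2.4.6, scipy 1.17.1), with a two-sided p that doubles the smaller tail.

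Members and lists were chosen with earlier results of these data known. Named are the members, their other strands, miRNAs with the same seed or within 2 Mb, the 5 most like the cluster in each of 2 rankings, and miR-148a-3p. The highest spreads, the neighbouring pairs, the strand shares with 1 tumor left out and single miRNAs named from the lists were added after the values were seen. RefSeq names (GRCm38.p6) matched 1675 of 1966 miRNAs. The labels do not describe further replication, so p-values measure the spread between these libraries. The paper counts more tumors than animals among its R26 IGF2BP1/MYCN mice. Whether TIM libraries share a mouse was not determined, and the tests treat each library as independent.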

Additional observations from a re-analysis of the deposited data

Results flagged for a closer look

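The log2 ratio of miR-182-5p over miR-183-5p differed between the tumor groups by a direct test, with a difference of TIM from TI of -0.85 (exact permutation p = 0.00062, adjusted p = 0.0056) and 7 of 8 TIM tumors below the lowest TI tumor. Depth overlapped between the tumor groups, with a median of 19399926 reads in TI and 19496348 in TIM, and both members of a ratio come from the same library. The part of age, depth, mapping or library preparation in this difference was not tested. Of 14 sets of values, the 4 members and 3 ratios in each of TI and TIM, 0 held a library far enough from the others to stand out by Dixon's test on the log2(CPM + 1) scale. The test divides the gap at an end by the whole range. For miR-183-5p and miR-182-5p in TIM that range holds the gap between the high and the low set, which can hide a single far library. For miR-183-5p in TI, TI-b came close, with a ratio of 0.542 against a critical value of 0.568.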

How the results depend on the processing

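No paired analysis was run, since the groups come from mice of different genotypes and the columns give no replicate number. Of the levels and ratios, those of TI against AG kept their direction under every alternative run, and that of miR-182-5p was called (-2.41, 1 member called) with only these 2 groups in the model, where the spread within TIM does not enter. With DESeq2, with or without outlier replacement (the latter added after seeing the data), 1 member was called against AG in TIM (miR-183-5p, 2.89) and 3 between TIM and TI (miR-183-5p 4.21, miR-182-5p 3.23 and miR-96-5p 3.07). Of all 726 tested miRNAs, DESeq2 called 423 and 123 in these comparisons with replacement, and 414 and 120 without it. The limma count was 0 for each of the 3 comparisons, and edgeR also gave 0 of 3.

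For TIM against AG, miR-182-5p turned to 1.78 with edgeR and 1.69 with DESeq2. miR-96-5p, at -0.0043, turned to 0.26 with a pseudocount of 5, 0.25 without the TMM factor, 0.43 on totals that omit miR-148a-3p, 1.44 with edgeR and 1.27 with DESeq2. Leaving out the TMM factor moved the median of all miRNAs by -0.14, 0.23 and 0.43 in the 3 comparisons, and leaving out miR-148a-3p by 0.35, 0.39 and 0.07, so relative to all miRNAs the shift of miR-96-5p was at most 0.04. The count of all miRNAs called between TIM and TI ran from 3 with edgeR to 155 without the TMM factor, against 38. With each library left out in turn, miR-183-5p ran from -2.18 to -1.05 (TI against AG), -0.26 to 1.17 (TIM against AG) and 1.46 to 2.84 (TIM against TI). miR-96-5p ran from -1.95 to -0.20, -0.69 to 1.13 and 0.64 to 1.76, and miR-182-5p from -2.92 to -2.04, -1.84 to -0.41 and 0.577 to 2.001, with 0 members called throughout.

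The ratio of miR-182-5p over miR-183-5p between TIM and TI kept its call under every alternative run (-0.87 to -0.78). Against AG it passed in TIM with a pseudocount of 0.1 (-1.55), without the TMM factor (-1.54), with less than 1 read added to the reads (-1.55) and with the p from the absolute difference (-1.54), and ran from -1.84 to -1.26 with 1 library left out. The ratio of miR-96-5p over miR-183-5p passed between TIM and TI with a pseudocount of 0.1 (-0.91), without the TMM factor (-1.01) and with less than 1 read added (-0.93). The ratio of miR-183-5p over miR-183-3p turned for TIM against AG to 0.38 with a pseudocount of 5 and 0.15 without the TMM factor, ran from -0.61 to 0.39 with 1 library left out, and turned for TIM against TI to -0.77 with less than 1 read added. The causes of these changes were not tested. At 0 to 112 reads a library, miR-183-3p was too low for the filter and was tested only without one.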
